A study of Equus caballus with 16 samples.

Results

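The 100 most abundant genes of cultured equine tenocytes, the resident cells of tendon, are described here out of 21689 genes in the deposited count tables. They were chosen by level alone: for each gene the CPM (the gene's count divided by the library's total count, times 1000000) was averaged over the 8 non-target libraries and the 100 highest were taken. They are described over all 16 libraries. The choice rests on counts that are not divided by gene length, so a long gene can rank above a shorter one with as many RNA molecules, and levels of different genes are not compared further. The identifiers carry no gene symbols, and the RefSeq gene table at hand matched 0 of the 100. Genes are therefore called by their abundance rank, with an identifier for the few that the comparisons turn on.

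The cells came from 4 adult lines (TB171012, TB180412, TB130911 and S, horses labelled 2 to 10 years old) and 4 fetal lines (271d, 316d, 319d and 320d, named by gestation of 271, 316, 319 and 320 days), at passages 5 to 8. Each line was made into a stable culture with the TRC2-pLKO.1-puro plasmid carrying 1 of 2 short hairpin RNAs. One was scrambled and served as the non-target control (NT). The other (shSCX) was designed against human SCX, the gene of Scleraxis. All cultures, controls included, thus carried a hairpin plasmid and grew in serum-containing medium, and each of the 4 groups (adult NT, adult shSCX, fetal NT, fetal shSCX) held 4 libraries. By its title, the study addresses whether the regulation by Scleraxis differs between developmental stages.

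Scleraxis is a transcription factor of the tendon lineage that is known to promote matrix genes, type I collagen among them. In fibroblasts generally the most abundant messenger RNAs code for secreted matrix proteins, the actin and intermediate filament cytoskeleton, ribosomal proteins and translation factors, and enzymes of glycolysis. Which of these classes a given rank belongs to was not analysed here. For the same reason the level of SCX and the markers of tenocytes and of other cell types were not checked, so NT and shSCX are the labels of the libraries. Total counts ran from 17628158 to 26157162 per library.

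The levels used for the choice dropped off steeply over the first ranks and then flattened. The gene of rank 1 averaged 28157 ± 5650 CPM over the NT libraries (SD, n = 8). In adult NT libraries it stood at 31798 CPM in TB171012, 23004 in TB180412, 21300 in TB130911 and 37996 in S, and in the fetal NT libraries of 271d, 316d, 319d and 320d at 30020, 22677, 30643 and 27822 CPM. The adult lines spread more widely than the fetal lines, whose values lay inside the adult range. Above a mean of 10000 CPM there were 8 genes, 19 were above 5000 and 49 above 2000, and the median of the 100 was 1961 CPM against 17.3 CPM over the 12888 genes that passed the filter on low counts in all libraries. All 100 passed that filter. At the border of the rule the means of ranks 99 and 100 were 1180 and 1174 CPM and those of the next 2 genes outside were 1159 and 1151 CPM, so the last places were separated by little.

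**Figure D1:**
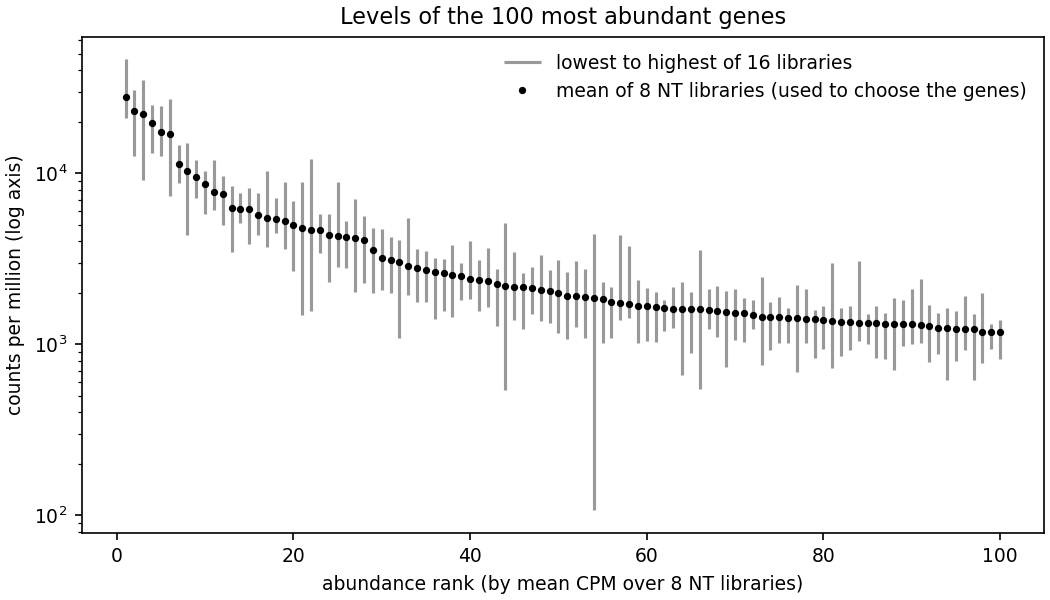
Levels of the 100 genes in CPM (log axis) against abundance rank. Points are means of the 8 NT libraries, which chose the genes, and grey bars run from the lowest to the highest of all 16 libraries; the longest bar, 41.3-fold from end to end, is that of rank 54.

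Most of the 100 genes were abundant in every culture. In each library's own list of the 100 highest genes, 88 to 94 of them were found for NT and 82 to 93 for shSCX. The NT libraries chose the genes, so overlap with their lists is largely built into the choice. Counts over all 16 libraries share this in part. The number among the 100 highest of all 16 libraries was 59, and 95 stayed among the 200 highest throughout. Leaving out the NT library of any single line changed the list by at most 2 genes. The gene of rank 1 was the most abundant in 14 of 16 libraries. In the NT library of TB180412 the gene of rank 3 was higher, and in that of 316d the gene of rank 4.

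Levels of a gene differed between libraries by a median of 2.15-fold from lowest to highest. For 40 genes this range was under 2-fold and for 6 it was at least 4-fold, at ranks 21, 22, 44, 54, 66 and 81. Rank 99 varied least, by 1.40-fold. Wide differences between lines within a stage are shown by rank 44, whose NT levels were 601 CPM in TB171012, 1358 in TB180412, 3343 in TB130911 and 823 in S, while those of 271d, 316d, 319d and 320d were 2138, 5160, 677 and 3432 CPM. Both stages had lines under 1000 CPM and lines above 3000 CPM. Rank 66 stood at 643 and 1049 CPM in TB171012 and S but at 3386 and 2861 in TB180412 and TB130911, with the 4 fetal NT libraries from 790 to 1869 CPM between and within those values.

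Spread between lines was measured as the SD of log2 CPM over the 4 lines of a group, after TMM scaling (a library scaling that sets the typical gene equal between libraries). In fetal NT libraries the median SD of the 100 genes was 0.26 on the log2 scale, against 0.35 for the 12888 filtered genes, and in fetal shSCX libraries 0.29 against 0.30. In adult NT libraries it was 0.42 against 0.39 and in adult shSCX libraries 0.40 against 0.45. With scaling by total counts the adult NT values were 0.32 and 0.40, so the order of the 100 genes and all genes in that group depends on the scaling. The filtered genes are mostly far less abundant and are not matched for level. The next 100 genes by abundance, a list added after seeing the data, are nearer in level. With TMM scaling their medians were 0.26 in fetal NT and 0.22 in fetal shSCX libraries. In adult NT and adult shSCX libraries they were 0.39 and 0.37. Against these genes the spread of the 100 was not lower in any group. Among the 100 genes, rank 84 had the lowest spread in both adult groups, 0.090 and 0.068. These are descriptions and were not tested.

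As a whole the 100 genes took 38.1% of the counts of a library on average, with counting intervals (95% Wilson) no wider than 0.0459 percentage points. In fetal lines the share was lower with shSCX in 4 of 4 lines: 40.2% with NT and 34.7% with shSCX in 271d, 39.1% and 34.1% in 316d, 38.9% and 35.7% in 319d, and 42.5% and 41.1% in 320d. Line 320d was the highest in both groups, and its shSCX library lay above the NT libraries of the other fetal lines. In adult lines it went from 38.98% to 35.1% in TB171012, from 36.5% to 36.9% in TB180412, from 36.6% to 35.9% in TB130911 and from 42.1% to 41.5% in S. The mean difference was -3.77 ± 1.89 percentage points in fetal and -1.16 ± 1.91 in adult lines (SD, n = 4 each), and among adult lines it was beyond 1 point in TB171012 alone. Because the genes were chosen on NT libraries, a lower share with shSCX is partly built into the choice. With the 100 genes chosen on the shSCX libraries, of which 91 were the same, the fetal difference was -2.97 ± 1.79 and the adult one -0.53 ± 1.52 percentage points. In bulk RNA, fewer cells of a type and less RNA per cell cannot be told apart, and a share says nothing of absolute amounts.

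In the mean over fetal lines, the 10 highest genes made up most of that difference. In fetal lines ranks 1 to 10 went from 18.03% to 12.9% of counts in 271d, from 15.5% to 12.7% in 316d, from 16.5% to 13.9% in 319d and from 17.4% to 16.6% in 320d, a mean difference of -2.80 ± 1.80 points. Ranks 11 to 100, which hold a larger share, differed by -0.97 ± 0.88 points (SD, n = 4 each). In adult lines ranks 1 to 10 went from 15.6% to 11.6% in TB171012, while TB180412, TB130911 and S had 0.230, 0.172 and 0.0310 points more with shSCX. Ranks 11 to 100 differed by 0.094 points in TB171012, 0.233 in TB180412, -0.847 in TB130911 and -0.551 in S. The lower share with shSCX in TB130911 and S thus lay in ranks 11 to 100. Counts were also spread over more genes in fetal shSCX cultures. The number of genes needed to reach 50% of the counts was 228 with NT and 321 with shSCX in 271d, 229 and 352 in 316d, 239 and 301 in 319d, and 180 and 205 in 320d. In adult lines it was 229 and 279 in TB171012, 315 and 292 in TB180412, 299 and 304 in TB130911, and 183 and 190 in S.

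**Figure D2:**
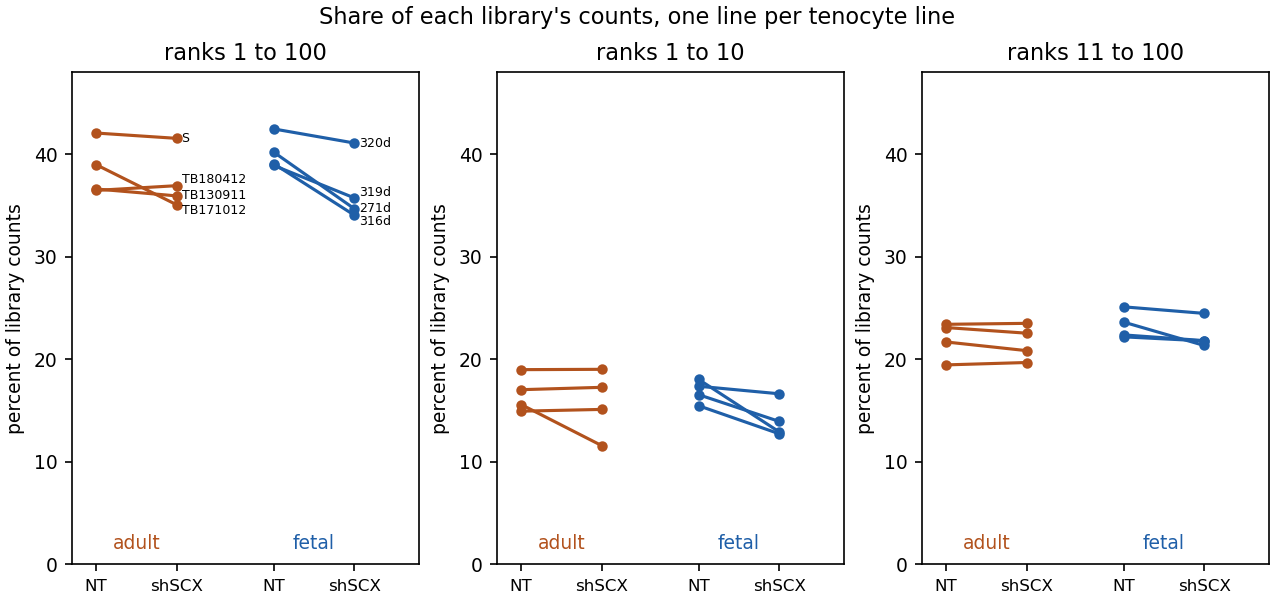
Percent of each library's counts held by all 100 genes, by ranks 1 to 10 and by ranks 11 to 100, with NT and shSCX libraries of a line joined. All 4 fetal lines (blue) slope down for the 100 genes, while among the adult lines (brown) TB171012 has the steepest slope, from 38.98% to 35.1%.

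In fetal tenocytes 36 of the 100 genes fell with shSCX and 4 rose (edgeR quasi-likelihood test with the line as a block, adjusted p under 0.05 over all genes tested). Over all 12418 genes tested 17.2% were called, 8.04% falling and 9.18% rising. Here and in the tests below, the shares of all genes come from genes mostly far less abundant than the 100. They are not matched for level, and how far level affects the number of calls was not tested. The median log2 fold change of the 100 was -0.29 (a change of -17.9%), against 0.01 for all genes tested, and 78 of the 100 had a value below 0. The falls were mostly small: the 36 genes had a median of -0.50 and only rank 54 passed 2-fold. Lower values in all 4 fetal lines were found for 56 of the 100 genes and higher values in all 4 for 9, where 22.0% and 22.9% of all genes tested did so.

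The lowered genes lay across the whole range of abundance. Of ranks 1 to 25 the test called 5 lower and 2 higher, of ranks 26 to 50 11 and 0, of ranks 51 to 75 13 and 0, and of ranks 76 to 100 7 and 2. Among ranks 1 to 10 those that fell were ranks 2, 4, 8 and 10. Rank 1 was not called in the fetal test (log2 -0.24, SE 0.13, edgeR adjusted p = 0.230), with 24518, 20959, 25577 and 30096 CPM in the shSCX libraries of 271d, 316d, 319d and 320d. The border at rank 100 did not mark a change: of the next 100 genes, a list added after seeing the data, 41 fell and 3 rose in the same test, with a median of -0.27.

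Since the NT libraries that chose the genes are part of the comparison, the choice was repeated on other libraries. The 100 genes highest in the 4 adult NT libraries, which take no part in the fetal comparison, held 97 of the same genes, and of them 36 fell and 4 rose in fetal lines. Of the 100 highest in the shSCX libraries 31 fell and 7 rose. Scaling also matters for genes that hold so much of a library. With scaling by total counts 27 of the 100 fell and 8 rose, where 4.57% and 13.7% of all genes did, and the median of all genes moved up by 0.10. Set against that median, the 100 genes were lower by 0.30 on the log2 scale. Scaling shifts all genes of a library alike, so this gap is nearly the same with either scaling by construction. TMM factors computed without the 100 genes gave 42 lower and 4 higher, against 9.46% and 8.21% of all genes.

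The number of fetal calls depended on which line was left out, among the 100 genes and among all genes. Without 320d 3 genes fell and 0 rose, against 0.770% and 1.40% of all genes tested in that fit. Without 319d 12 fell and 1 rose, against 2.30% and 4.05%. Without 271d 25 fell and 1 rose, against 9.41% and 8.52%. Without 316d, the line with the largest median difference, 30 fell and 6 rose, against 5.82% and 8.10%. The median of the 100 genes stayed between -0.36 and -0.23 with any fetal line left out. Without the line as a block 0 of the 100 were called, against 0.467% of all genes.

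ENSECAG00000013832, of rank 54, fell furthest in both stages. In fetal lines it went from 1598 CPM with NT to 274 with shSCX in 271d, from 1849 to 887 in 316d, from 1004 to 544 in 319d and from 4421 to 2418 in 320d. In adult lines it went from 616 to 107 in TB171012, from 1957 to 832 in TB180412, from 1565 to 501 in TB130911 and from 1930 to 871 in S. Each line was lower with shSCX, while the groups overlapped because the lines themselves lay far apart; in the shSCX library of TB171012 the gene ranked 1485. The fitted log2 fold change was -1.43 in fetal (SE 0.28, edgeR adjusted p = 0.0188) and -1.63 in adult lines (SE 0.23, edgeR adjusted p = 0.0142), falls to 0.372 and 0.323 of the NT level. The fetal call was lost without 320d (edgeR adjusted p = 0.0621), and the adult call without TB130911 (0.0615) or S (0.0626).

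ENSECAG00000015145, of rank 8, was next in fetal lines. Its level went from 11870 to 5533 CPM in 271d, from 12687 to 6157 in 316d, from 5260 to 4343 in 319d and from 14986 to 11500 in 320d. The falls were large in 271d and 316d and smaller in 319d and 320d. The fetal log2 fold change was -0.80 (SE 0.18, edgeR adjusted p = 0.0276). It lost its call without 271d (adjusted p = 0.0720) or 320d (0.0697) and with DESeq2 (0.270). In adult lines it had -0.63 (SE 0.17, edgeR adjusted p = 0.119), also lower in 4 of 4 lines. Rank 28 had nearly the same fetal value, -0.80 (SE 0.10, edgeR adjusted p = 0.00506), with line values from -0.94 to -0.67.

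The 4 genes that rose in fetal lines were those of ranks 17, 22, 84 and 90. ENSECAG00000018853, of rank 22, went from 5703 to 12125 CPM in 271d, from 3852 to 7565 in 316d, from 5055 to 7795 in 319d and from 5901 to 9281 in 320d. All 4 shSCX libraries lay above all 4 NT libraries. Its fetal log2 fold change was 0.73 (SE 0.12, edgeR adjusted p = 0.0106), or 1.66-fold, and the call was lost without 320d (adjusted p = 0.0616) and with all 16 libraries in one fit (0.0569). Adult lines gave no common direction for it: 5900 to 11432 CPM in TB171012, 3187 to 1569 in TB180412, 5129 to 4261 in TB130911 and 2622 to 3270 in S (log2 fold change -0.00, edgeR adjusted p = 0.997). The difference between stages was not past the threshold (0.72, SE 0.34, edgeR adjusted p = 0.332). Values of this gene were not whole numbers in 6 libraries.

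ENSECAG00000023141, of rank 84, rose in both stages. In fetal lines it went from 1538 to 3078 CPM in 271d, from 1514 to 2052 in 316d, from 1338 to 1965 in 319d and from 1051 to 1942 in 320d (log2 fold change 0.62, SE 0.13, edgeR adjusted p = 0.0213). In adult lines it went from 1191 to 1843 in TB171012, from 1415 to 1781 in TB180412, from 1519 to 1933 in TB130911 and from 1157 to 1677 in S (log2 fold change 0.46, SE 0.09, edgeR adjusted p = 0.0469). In each stage the lowest shSCX library lay above the highest NT library. The fetal call was lost without 271d, 319d or 320d (adjusted p 0.0534, 0.0610 and 0.116). The adult call was lost without any of the 4 lines (0.0715 to 0.333) and with TMM factors computed without the 100 genes (0.0521). Its values were not whole numbers in 9 libraries.

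**Figure D3:**
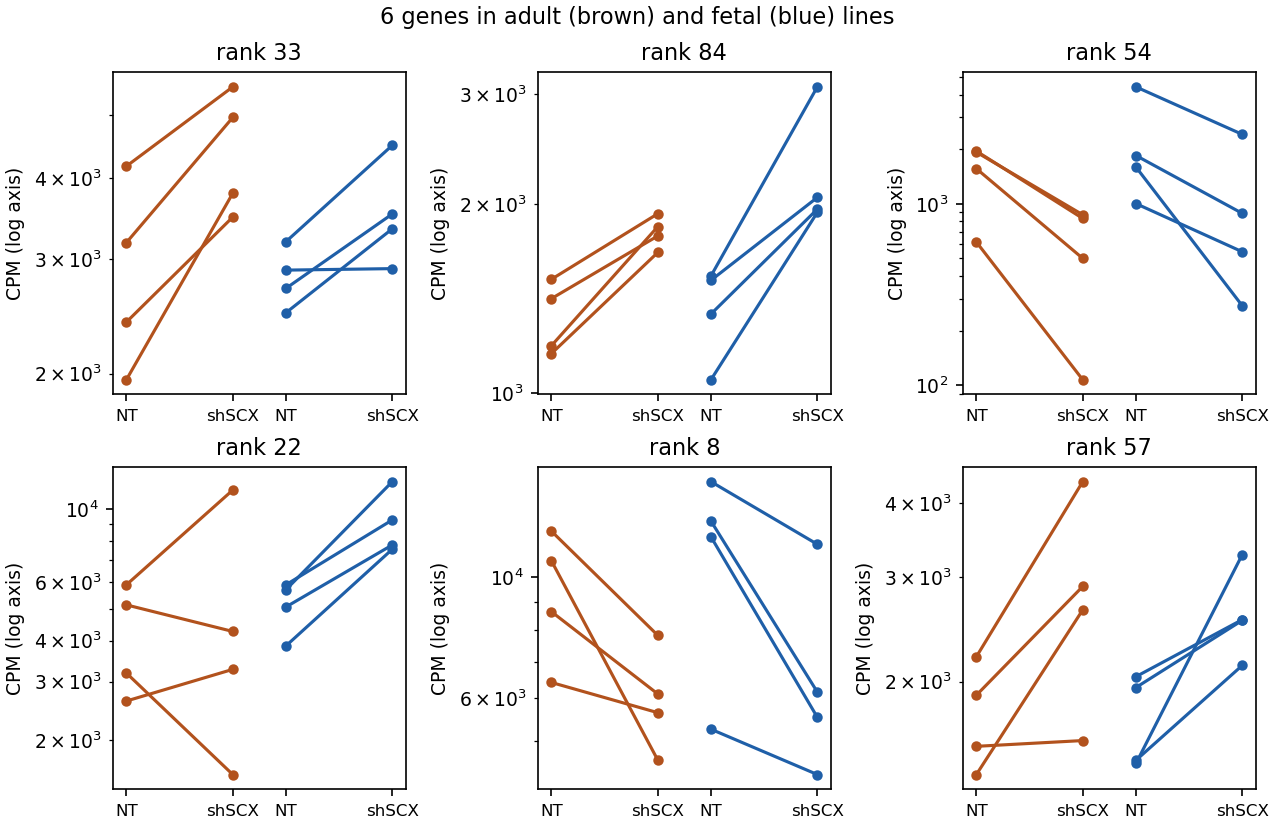
Levels in CPM (log axes that differ between panels) of the genes of ranks 54, 8, 84, 33, 57 and 22, with NT and shSCX libraries of a line joined. Ranks 54 and 8 slope down and ranks 84, 57 and 33 slope up in all 8 lines. Rank 33 does so by little in 316d (2885 to 2901 CPM), where its log2 ratio after TMM scaling was -0.17. Rank 22 slopes up in 4 of 4 fetal lines and in 2 of 4 adult lines.

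In adult tenocytes 3 of the 100 genes passed the test, with rank 54 lower and ranks 33 and 84 higher. Of all 12513 genes tested in adult lines 2.60% were called, 0.663% lower and 1.93% higher, so these counts are near the background. The median log2 fold change was -0.12 against -0.03 for all genes tested. Before adjustment 31 of the 100 were at p under 0.05, against 17.5% of all genes, and the DESeq2 Wald test called 5 lower and 4 higher, against 2.10% and 3.56% of all genes. The balance of these few adult calls moved with the scaling. Total counts gave 2 lower and 2 higher (0.671% and 1.95% of all genes), and TMM factors computed without the 100 genes gave 1 lower and 0 higher (0.583% and 1.73%). Values below 0 in all 4 adult lines were found for 35 genes and above 0 for 11, against 14.0% and 13.0% of all genes. The adult NT libraries that helped choose the genes are part of this comparison, so lower values are partly built in. Of the 100 genes highest in the shSCX libraries 0 fell and 4 rose, with a median of -0.10. Of the 100 highest in the fetal NT libraries, which take no part in it, 1 fell and 2 rose, with a median of -0.12. ENSECAG00000007644, of rank 33, went from 3180 to 4951 CPM in TB171012, from 1958 to 3787 in TB180412, from 2401 to 3481 in TB130911 and from 4167 to 5517 in S. It was higher with shSCX in each line, though the groups overlapped (log2 fold change 0.63, SE 0.11, edgeR adjusted p = 0.0337). The call was lost without any 1 of the 4 lines (adjusted p 0.0772 to 0.188) and with TMM factors computed without the 100 genes (0.0549). In fetal lines the value was 0.22 (SE 0.12, edgeR adjusted p = 0.224).

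The adult lines differed among themselves. The median log2 ratio of the 100 genes was -0.26 in TB171012, within the fetal range, and -0.02, -0.05 and -0.08 in TB180412, TB130911 and S. The fetal lines 271d, 316d, 319d and 320d had -0.34, -0.45, -0.23 and -0.10. Over all filtered genes the medians of the lines lay between -0.05 and 0.04. The number of the 100 genes below 0 was 76 in TB171012, 54 in TB180412, 63 in TB130911 and 64 in S, and 77, 79, 76 and 66 in 271d, 316d, 319d and 320d.

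With a single shSCX effect over all 8 lines, 40 of the 100 genes fell and 8 rose (edgeR with the line as a block), where of 12888 genes 19.0% were called, 9.76% falling and 9.25% rising. The median log2 fold change was -0.22. The NT libraries that chose the genes are all part of this test: of the 100 genes chosen on the shSCX libraries 35 fell and 14 rose, with a median of -0.14. Of the 36 fetal falls 34 were among the 40. Values below 0 in 8 of 8 lines were found for 27 genes and above 0 for 5, against 6.60% and 6.67% of all genes. Ranks 54 and 8 again fell furthest, by -1.54 (SE 0.20, edgeR adjusted p = 0.000612) and -0.73 (SE 0.14, edgeR adjusted p = 0.00436). The 8 genes that rose were those of ranks 11, 17, 33, 40, 48, 57, 84 and 90. ENSECAG00000000953, of rank 57, had the largest rise, 0.56 (SE 0.12, edgeR adjusted p = 0.00782), and passed in neither stage alone. Its levels went from 2204 to 4348 CPM in TB171012, from 1395 to 2644 in TB180412, from 1556 to 1592 in TB130911 and from 1898 to 2895 in S, and from 1456 to 3277 in 271d, 1474 to 2131 in 316d, 2040 to 2545 in 319d and 1955.5 to 2538 in 320d. It was higher with shSCX in all 8 lines, by little in TB130911. Rank 84 rose by 0.53 (SE 0.08, edgeR adjusted p = 0.00131). The calls of these 4 genes held with any single line left out.

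A difference between the stages in the shSCX effect was called for 0 of the 100 genes by the edgeR interaction test, as for 0% of 12888 genes, with a lowest adjusted p of 0.307. DESeq2 and limma voom also called 0 of the 100. At unadjusted p under 0.05 there were 25 of the 100, against 15.6% of all genes. The fitted fetal effect was below the adult effect for 80 of the 100 genes and for 6438 of all 12888, and the 36 genes that fell in fetal lines all had an adult value below 0, with a median of -0.21. Line ratios that did not overlap between stages were found for 5 genes with lower fetal values (3.41% of all genes) and for 1 gene with higher fetal values (4.65%). ENSECAG00000013635, of rank 94, had fetal log2 ratios of -0.69, -0.88, -0.77 and -0.73 in 271d, 316d, 319d and 320d against adult ratios of -0.58, 0.09, -0.35 and -0.29 in TB171012, TB180412, TB130911 and S (difference -0.49, SE 0.13, edgeR adjusted p = 0.307). ENSECAG00000014700, of rank 68, had fetal ratios from 0.08 to 0.29 and adult ratios from -0.22 to 0.06 (difference 0.27, SE 0.12, edgeR adjusted p = 0.309). For ENSECAG00000008548, of rank 55, the difference was -0.44 (SE 0.14, edgeR adjusted p = 0.307). None of the 3 passed the threshold.

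**Figure D4:**
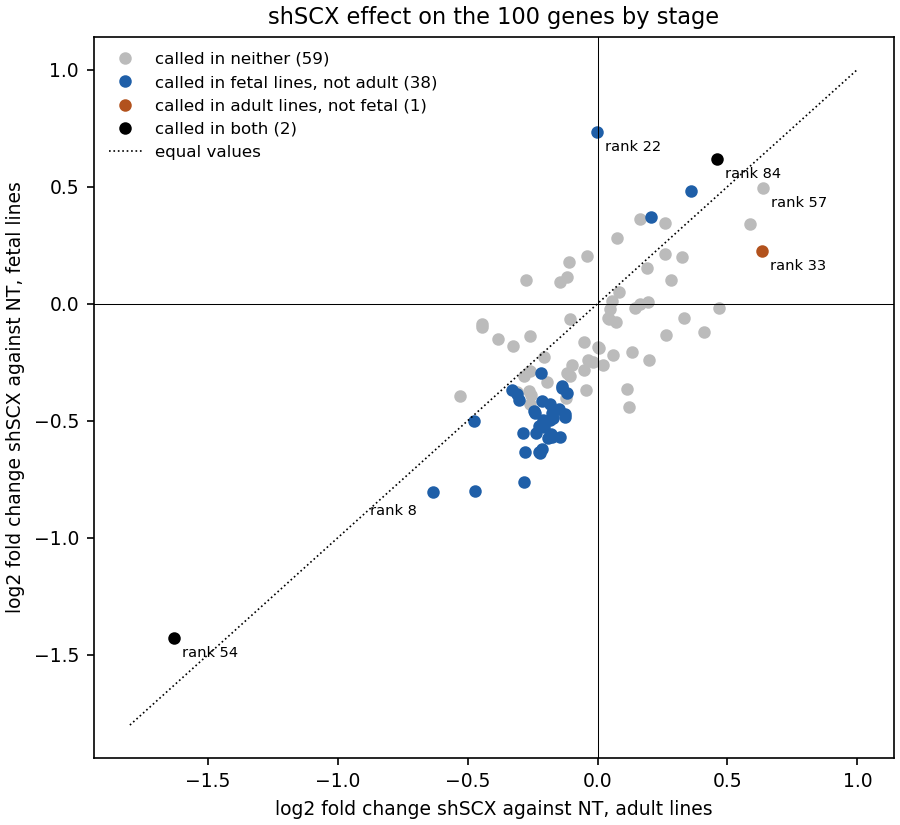
Log2 fold change of each of the 100 genes with shSCX in fetal lines (vertical) against adult lines (horizontal), coloured by edgeR call; the dotted line marks equal values. A dense group of fetal calls sits near -0.5 on the fetal and -0.2 on the adult axis, and rank 54 lies alone at -1.43 and -1.63.

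Between fetal and adult NT lines edgeR called 0 of the 100 genes, against 0.00807% of 12384 genes. With 4 lines per stage, 0 calls do not show that the levels were equal. The median log2 difference, fetal against adult, was 0.14 for the 100 genes and 0.003 for all genes tested. Of the 100 genes 17 had a value below 0. At unadjusted p under 0.05 there were also 0 of the 100, against 2.81% of all genes, and DESeq2 and limma voom called 0 of the 100. For 0 of the 100 genes were the 4 fetal and 4 adult NT levels apart without overlap, against 1.43% of all genes. The largest fitted difference upward in fetal lines was 1.03 for rank 44 (SE 0.65) and the largest downward -0.58 for rank 66 (SE 0.47), both at edgeR adjusted p = 0.998, and these were genes that varied widely within each stage. The choice by the mean of both stages favours genes that are high in each.

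The 100 genes were also grouped by their line ratios, with a limit of 0.4 on the log2 scale to the difference between any 2 genes of a set in any line. This gave 45 sets, 23 of them single genes. The limit was chosen after seeing the data, and it fixes how alike the genes of a set are. One set held 9 genes, of ranks 24, 36, 37, 43, 46, 51, 55, 65 and 94. Their median log2 ratios were -0.53 in TB171012, -0.01 in TB180412, -0.17 in TB130911 and -0.19 in S, and -0.59, -0.78, -0.47 and -0.51 in 271d, 316d, 319d and 320d. The narrowest range, 0.12, was in TB171012. All 9 were among the 36 that fell in fetal lines, where 8.04% of all genes tested fell. In adult lines 0 were called, against 2.60% of all genes tested. The sets were formed on the libraries that these tests use, so genes of a set tend to be called together. The largest set held 12 genes, with a median of -0.68 in 316d and of -0.34 to -0.29 in the other fetal lines, and 7 of them fell in fetal lines. Its genes spanned 0.25 to 0.39 on the log2 scale within a line, a range similar in size to several of its medians. Which genes share a set is a description of these 8 ratios and carries no test.

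**Figure D5:**
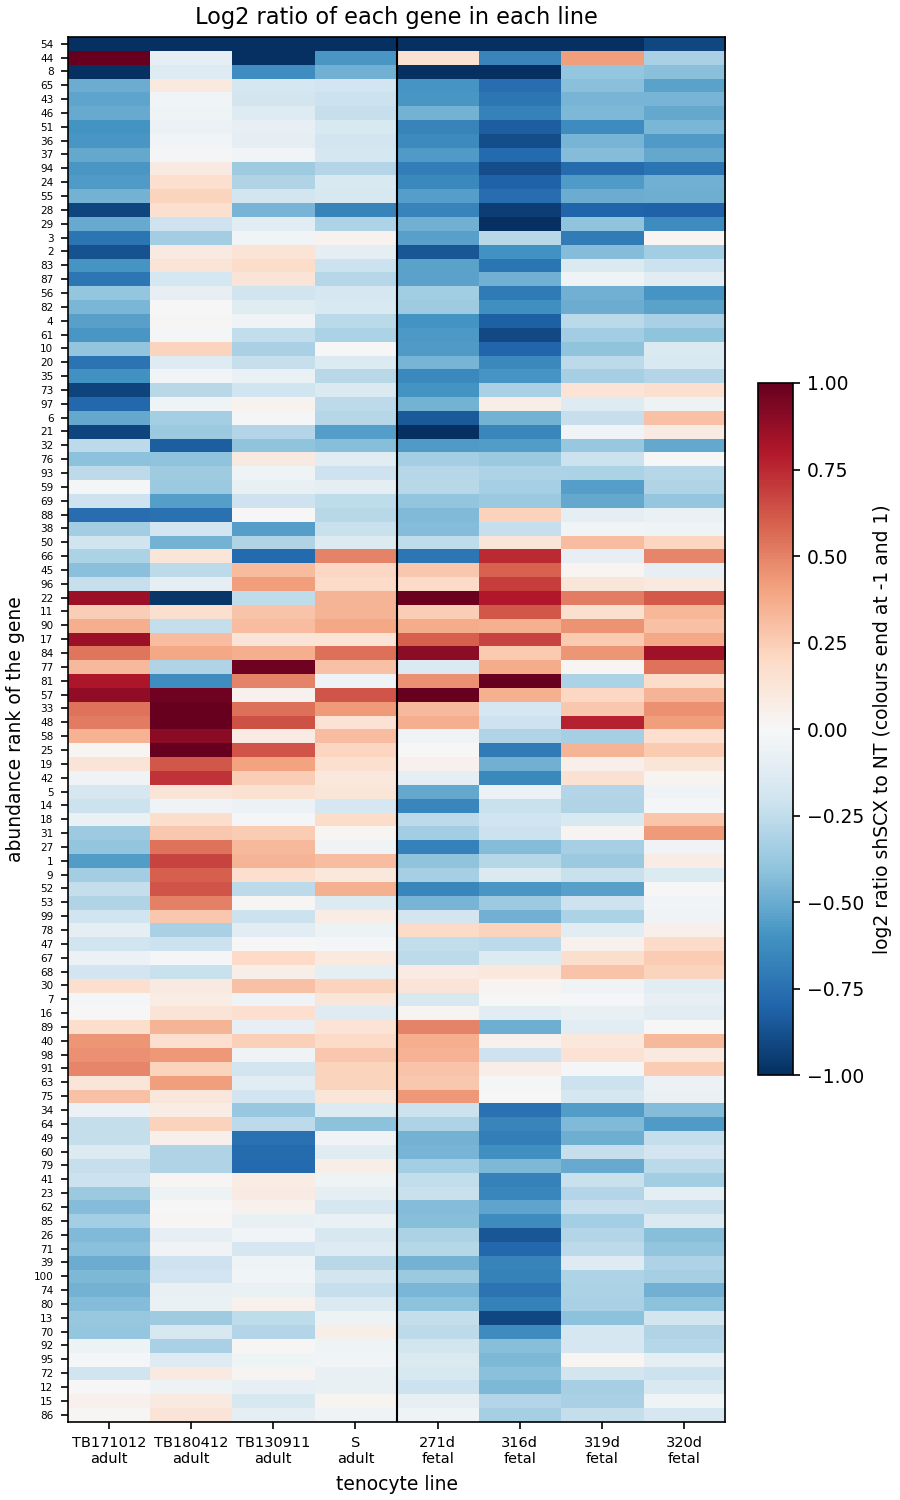
Log2 ratio of shSCX to NT for each of the 100 genes (rows, labelled by abundance rank and ordered by likeness) in each line (columns, adult left of the black line). Blue rows dominate the fetal columns and TB171012, whose medians are -0.45 to -0.10 and -0.26; the row of rank 54 is dark blue throughout.

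Reads that match several transcripts are divided between them in estimated counts, so a gene's value that is not whole marks reads divided with another gene. Such values were found in at least 1 library for 23 of the 100 genes, against 9.16% of the filtered genes. Of the 36 genes that fell in fetal lines 7 were among them, and of the 4 that rose 3 were. How the reads of these genes were divided is uncertain, and so are their levels.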

How the data were processed

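RNA of 16 libraries was sequenced as paired reads after stranded mRNA library preparation, per the labels' protocols. The authors deposited estimated counts per gene, unscaled, in an adult and a fetal table; the submitters' processing notes list FastQC, Salmon and R 3.5.2. Transcript set and genome build were not given in the sources used here. Adult columns headed TB with no digits were taken as TB171012, the single adult line left without columns.

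Tables were joined by identifier and counts rounded. The tests used edgeR 4.0.16 under R 4.3.3 (TMM, filterByExpr, quasi-likelihood test, Benjamini-Hochberg over all genes tested, threshold 0.05). The line was the block: deviations from group means correlated within pairs (r 0.418 to 0.793), and 8 of 8 shSCX libraries correlated best with their own NT library. Log2 levels used a pseudocount of 0.5 counts. No libraries of a group were alike within counting noise (lowest chi-square divided by its degrees of freedom 43.3), so each counted once. The series design calls the lines independent. Values were called whole within 0.01.

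Named genes were, per direction and comparison, the 2 largest changes past the threshold with the same sign in all lines, or for the interaction the smallest p among those without overlap. Between stages none met the rule. The members, lists and rules were chosen with earlier results of these data known. Gene lists and cell type markers need symbols and were not used here, nor were sequences. Alternatives were DESeq2 1.42.0, limma 3.58.1 voom, other scalings, no filter, no block, one joint fit, other choices of the genes and each line left out.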

Additional observations from a re-analysis of the deposited data

How the results depend on the processing

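Among counts of genes called, the fetal count of 40 was 35 to 54 with other tests, scalings, filters and choices of 100 genes. It was 0 with no replicate block, 18 for the 50 most abundant genes and 84 for the 200 most abundant, and 3 to 36 with a line left out. The adult count of 3 was 9 with DESeq2, 1 with TMM factors computed without the 100 genes, 0 with no replicate block, 1 for the 50 and 5 for the 200 most abundant genes, and 0 to 1 with a line left out. The count of 48 over 8 lines was 2 with no replicate block, 24 for 50 genes, 97 for 200 genes, and 31 (without 319d) to 50 (without TB180412) with a line left out. Counts of 0 for the interaction and between stages were 0 under each alternative. Leaving out a line lowers the number of samples; other causes were not tested. Median log2 fold changes of the 100 genes with shSCX kept their sign under each alternative run, as did the named genes. Over 8 lines the median was -0.14 for the 100 genes chosen on shSCX libraries, against -0.22. The mean share of counts (38.1% to 38.2%) moved by less than its SD over libraries. Its difference between shSCX and NT moved more. For genes chosen on shSCX libraries it was -2.97 points in fetal and -0.53 in adult lines, against -3.77 and -1.16. With scaling by total counts the median spread in adult NT libraries was 0.32, against 0.42. This reversed its order against all genes, while the other groups kept theirs. Lists of 50 and 200 genes hold other numbers of genes, so their counts are not on one scale. The share of all genes called can also move with the processing and is not given beside each count. In the main fits that share was 17.2% in fetal lines, 2.60% in adult lines and 19.0% over 8 lines. The counts of this section show how the number of calls moved, not how the 100 genes stood against all genes. Each of the 100 genes stood above 100 CPM in each library. With at least 17628158 counts per library, counting error is small beside the spread between lines.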
